A study of Mus musculus with 6 samples.

Results

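GATA, SCL and GFI1 factors are DNA-binding proteins and cofactors that direct blood progenitors toward the erythroid, megakaryocyte and mast cell lineages. The 10 genes described here were chosen by symbol: Gata1, Gata2, Zfpm1, Tal1, Lmo2, Lyl1, Ldb1, Gfi1, Gfi1b and Nfe2. All 10 were found among the 24411 genes of the deposited RNA-seq files, and all 10 passed the filter on low counts. The question was how these factors, and the balance of Gata2 to Gata1 in particular, differed after loss of Brd9, which encodes a bromodomain subunit of the non-canonical BAF chromatin remodelling complex.

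RNA-seq was performed on 3 control and 3 Brd9 KO libraries of lineage-negative cells taken from the marrow of femora and tibiae. All mice were C57BL/6 and CD45.2(+), and all received pIpC, an inducer of the interferon response, at 20 mg/kg in 3 doses, with cells prepared 8 weeks later. Controls were Brd9fl/fl without Cre and Brd9 KO mice were Mx1-Cre Brd9fl/fl, so an effect of Cre itself and of Brd9 loss cannot be told apart, and the Mx1 promoter is active in interferon-responsive cells beyond the blood lineage. The sources differ on whether the treated mice were transplant recipients (sample labels) or primary mice dosed 4 weeks after birth (series design), and on whether cells were also sorted for c-Kit (the study's methods). They also differ on age. The study's text gives these mice as 4 months old at 8 weeks after pIpC, older than dosing 4 weeks after birth would make them. It mentions no transplant for them. The study describes the RNA-seq as done in triplicate with biological replicates, whereas the labels do not say that replicates came from separate animals; if they did not, the p-values reflect only how much these libraries vary.

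GATA1 and GATA2 are zinc finger factors that recognise the same short DNA letters. GATA2 is known for its role in stem and progenitor cells and in mast cells, and GATA1 for its role in erythroid, megakaryocyte, eosinophil and mast cell maturation. As erythroid progenitors mature, GATA1 replaces GATA2 at shared sites and Gata2 falls, which is called the GATA switch. TAL1 (also called SCL) and its relative LYL1 are basic helix-loop-helix factors that join GATA factors through the bridging proteins LMO2 and LDB1, ZFPM1 (FOG1) is a cofactor bound by GATA1, GFI1 and GFI1B are repressors that recruit LSD1-CoREST, and NFE2 is the large subunit of NF-E2, which drives platelet and globin genes.

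Expected counts, RSEM's estimates of the reads from each gene, summed to between 21151031 and 28500168 per library. Brd9, the targeted gene, fell from 49.0 ± 3.11 to 16.7 ± 3.89 CPM (counts scaled to library size by TMM, SD, n = 3). This left 34.1% of its level (edgeR quasi-likelihood test, adjusted p = 0.00345). The study's allele deletes only the bromodomain exons, so these gene-level counts can include reads from the other exons. Full-length BRD9 protein was reported by the study as undetectable in whole bone marrow. The library Brd9 KO 3 stood apart from the other two KO libraries on the second principal component, which held 27% of the variance. Short and long transcripts also differed between libraries, as plotted by transcript length. For transcripts under 1000 bases the median deviation of log2 CPM from the mean of the 6 libraries was 0.399 in control 1, -0.047 in control 2, 0.0685 in control 3, -0.201 in Brd9 KO 1, -0.405 in Brd9 KO 2 and 0.173 in Brd9 KO 3. Over the same classes the median log2 fold change of Brd9 KO against control went from -0.283 (under 1000 bases) to 0.277 (6000 bases or more). Because the members range from 1552 bases (Lmo2) to 4216 bases (Tal1), the fold changes of the members, the 3 ratios and the counts of the lists were also computed with this trend removed within each library, an alternative added after seeing the data.

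**Figure D1:**
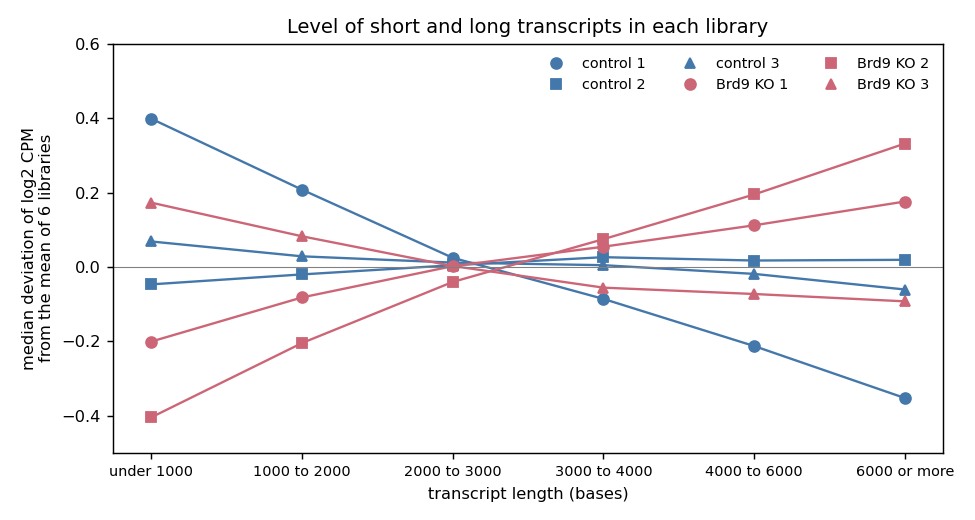
Median deviation of log2 CPM from the mean of the 6 libraries (vertical axis) for tested genes in 6 classes of transcript length in bases (horizontal axis), 1 line per library. Control 1 starts at 0.399 for the shortest class and ends at -0.353 for the longest, whereas Brd9 KO 2 runs from -0.405 to 0.332.

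The upstream sequences of 4 members are shown because GATA factors can act on GATA letters in the genes of this same circuit, Gata2 included. RefSeq promoter windows (GRCm38.p6) were matched for 8 of the 10 members, in 13 windows of 250 bases before an annotated start. The forms AGATAA or AGATAG, and their variants that open with T (TGATAA or TGATAG), were searched on both strands, and matches are in capitals. They occurred in 3 of the 13 windows, which belong to Tal1, Ldb1 and Gfi1b, and in 26.5% of all 32851 promoter windows of this length. The windows of Gata2 (chr6:88193641-88193890, plus strand) and Gata1 (chrX:7967911-7968160, minus strand) held no match, which says only that these letters are not in these windows. The Tal1 window (chr4:115056176-115056425, plus strand) has its match beginning 205 bases before the start, and the Gfi1b window (chr2:28621983-28622232, minus strand) 120 bases before it.
Gata2: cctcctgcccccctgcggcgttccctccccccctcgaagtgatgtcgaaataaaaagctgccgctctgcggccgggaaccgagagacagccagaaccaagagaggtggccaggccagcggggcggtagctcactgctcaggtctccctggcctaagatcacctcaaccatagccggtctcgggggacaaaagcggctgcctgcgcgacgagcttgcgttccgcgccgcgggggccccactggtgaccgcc
Gata1: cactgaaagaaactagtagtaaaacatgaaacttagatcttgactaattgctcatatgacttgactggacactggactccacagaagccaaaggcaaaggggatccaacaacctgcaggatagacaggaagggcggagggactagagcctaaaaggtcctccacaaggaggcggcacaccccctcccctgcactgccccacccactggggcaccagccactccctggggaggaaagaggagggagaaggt
Tal1: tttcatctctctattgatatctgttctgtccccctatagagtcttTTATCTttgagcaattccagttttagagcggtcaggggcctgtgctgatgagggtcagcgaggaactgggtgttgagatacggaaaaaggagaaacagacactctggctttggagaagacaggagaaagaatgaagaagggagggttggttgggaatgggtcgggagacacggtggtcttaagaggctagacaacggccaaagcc
Gfi1b: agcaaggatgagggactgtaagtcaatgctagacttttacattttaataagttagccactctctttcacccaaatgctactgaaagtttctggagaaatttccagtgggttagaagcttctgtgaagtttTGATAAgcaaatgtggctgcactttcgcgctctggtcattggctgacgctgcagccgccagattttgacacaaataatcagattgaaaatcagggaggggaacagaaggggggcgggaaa

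The E-box CAGNTG, the form bound by TAL1 and LYL1 with E proteins, was found in 3 windows, belonging to Lyl1, Ldb1 and Gfi1, and in 44.8% of all windows. The GFI1 core AATCAC (9.14% of all windows) and the NF-E2 and AP-1 core TGANTCA (6.75%) were found in none of the 13. No E-box match shares a base with a GATA match in these windows.

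Gata2 rose and Gata1 did not pass the test, so the balance of the pair moved toward Gata2. Of the 10 members, 1 was called higher in Brd9 KO (Gata2) and 1 lower (Gfi1) at an adjusted p under 0.1, and 8 did not pass. Over all 12953 tested genes, 15.4% were called, 9.19% higher and 6.25% lower. Higher genes made up 59.5% of those calls, 74.1% when libraries were scaled by their total and 83.3% on log2(TPM + 1), a scale on which the median gene changed by 0.18. The 2 calls among 10 members are near that background share. The median log2 fold change of the members was -0.02, against 0.02 over all tested genes. CPM values did not overlap between groups in 3 of 10 members (Gata2, Lmo2 and Gfi1), against 33.5% of all tested genes.

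**Figure D2:**
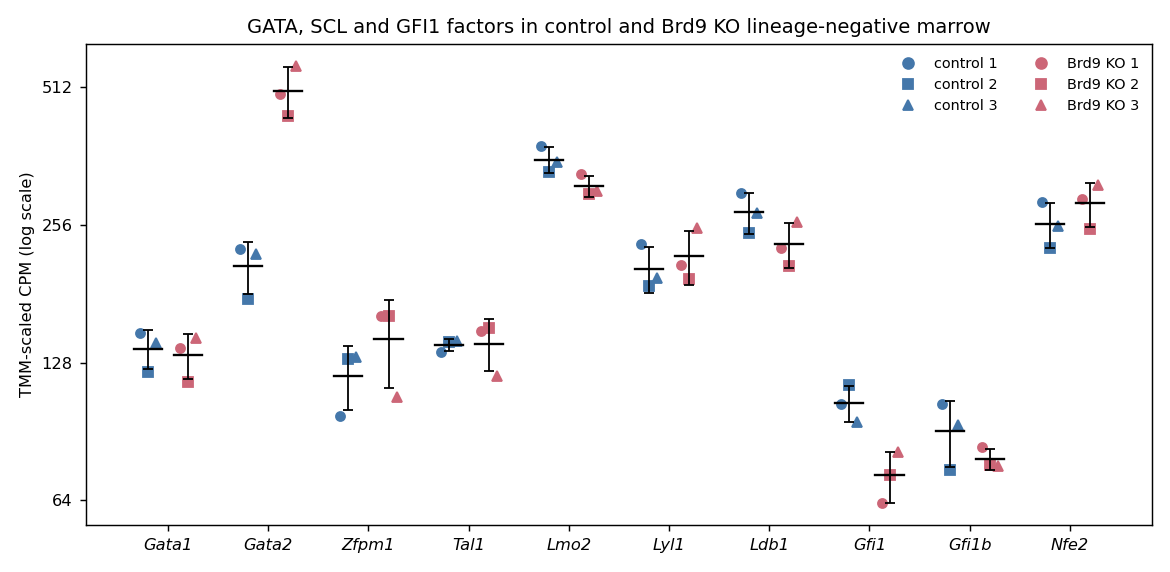
TMM-scaled CPM (vertical axis, log scale) of the 10 factors in each library, with the mean and SD of 3 libraries per group as black bars. The 3 Brd9 KO values of Gata2 sit between 442.9 and 570.1, above all control values, and most other members overlap between groups.

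Gata2 (chr6:88193891-88207032, plus strand, GRCm38) was at 226.4, 176.4 and 220.8 CPM in the control libraries and at 494.3, 442.9 and 570.1 CPM in the Brd9 KO libraries. Each Brd9 KO library was above each control library. The increase was 2.42-fold (log2 fold change 1.27 ± 0.14 SE, 95% interval 0.94 to 1.61, edgeR adjusted p = 0.00369). In size, the change exceeded that of 96.5% of tested genes. The call held in all 16 alternatives, with a log2 fold change of 1.16 to 1.48. With the length trend removed it was 1.24 (edgeR adjusted p = 0.00308). These are bulk samples, so more cells with Gata2 and more Gata2 RNA per cell cannot be told apart.

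Gata1 (chrX:7959260-7978071, minus strand) was at 148.6, 122.2 and 141.1 CPM in the controls and 137.6, 116.1 and 144.6 CPM in Brd9 KO. The groups overlapped throughout. The log2 fold change was -0.05 ± 0.12 SE, with a 95% interval of -0.34 to 0.24 (edgeR adjusted p = 0.827), so a change the size of that of Gata2 lies outside the interval, while a small change in either direction does not. Its sign changed with the scaling, to 0.036 with the length trend removed and to 0.16 on log2(TPM + 1), about the 0.18 of the median gene there, without passing the test in either.

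The ratio of Gata2 to Gata1 expected counts within a library does not depend on library scaling. It was 1.524, 1.443 and 1.564 in the controls and 3.591, 3.815 and 3.943 in Brd9 KO. The 2 groups were far apart relative to their spread, with SDs of 0.059 and 0.0683 on the log2 scale. The difference was 1.32 on the log2 scale, or 2.50-fold (exact two-sided permutation test, p = 0.1, the smallest that 3 against 3 libraries can give). With the length trend removed the log2 difference was 1.20, or 2.30-fold, and the groups still did not overlap (exact permutation p = 0.1).

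Per length, the order of the pair turned over. TPM, a level scaled by transcript length, gave a Gata2 to Gata1 ratio of 0.8527, 0.8067 and 0.8744 in the controls and 2.007, 2.131 and 2.205 in Brd9 KO. Gata2 was thus below Gata1 in every control library and above it in every Brd9 KO library on this scale. Gata2 stood at 83.0 ± 7.70 TPM in the controls and 232.6 ± 7.38 TPM in Brd9 KO, and Gata1 at 98.2 ± 6.05 and 110.3 ± 8.66 TPM (SD, n = 3).

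**Figure D3:**
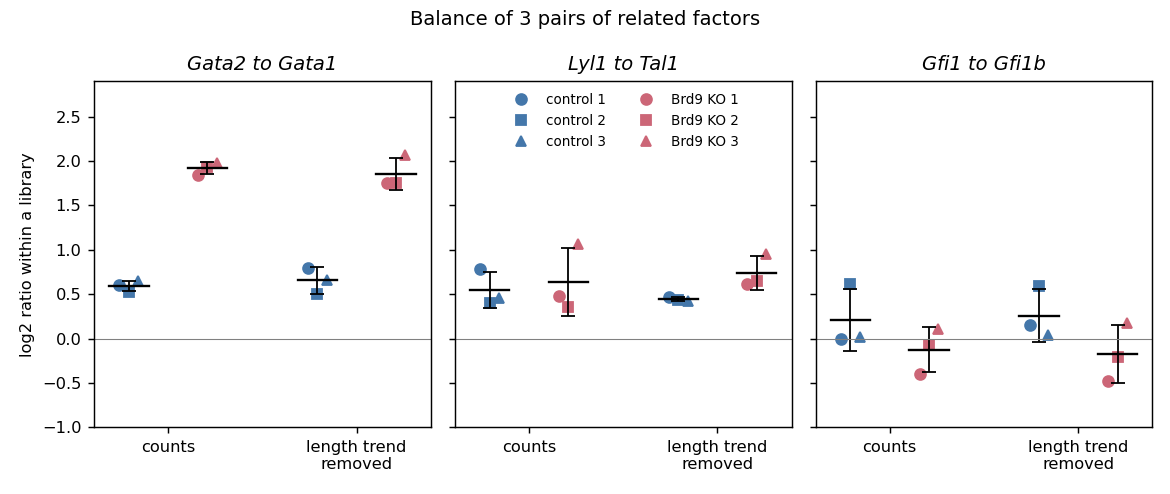
Log2 ratio of expected counts within each library for 3 pairs of related factors, as counted and with the length trend removed, with the mean and SD of 3 libraries per group as black bars. The Gata2 to Gata1 ratio of the Brd9 KO libraries lies above that of all controls in both forms, whereas Gfi1 to Gfi1b overlaps between groups in both.

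On the TPM scale the control order of levels ran Lmo2, Nfe2, Ldb1, Lyl1, Gata1, Gata2, Gfi1b, Gfi1, Zfpm1 and Tal1, from 320.7 TPM down to 42.7 TPM. Neighbours in that order did not overlap, except Gfi1 with Zfpm1 and Zfpm1 with Tal1. In Brd9 KO, Gata2 moved from rank 6 to rank 3, behind Lmo2 (328.1 TPM) and Nfe2 (290.9 TPM), whose values overlapped each other. The last 4 (Gfi1b, Zfpm1, Tal1 and Gfi1) overlapped from neighbour to neighbour, with Gfi1 last at 41.4 TPM.

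The bridging and helix-loop-helix members did not pass the test. Tal1 (chr4:115056426-115071755, plus strand), the SCL factor itself, was at 135.1, 142.0 and 142.5 CPM in the controls and 150.3, 152.6 and 119.9 CPM in Brd9 KO. Brd9 KO 3 was the lowest of the 6 libraries and the other two KO libraries were the highest. The log2 fold change of Tal1 was 0.01 ± 0.12 SE (edgeR adjusted p = 0.962), and -0.11 with the length trend removed (adjusted p = 0.378). Lyl1 (chr8:84701457-84704715, plus strand), its close relative, was at 232.1, 187.9 and 195.8 CPM in the controls and 209.2, 194.8 and 251.7 CPM in Brd9 KO, with the 2 highest values in Brd9 KO 3 and control 1. Its log2 fold change was 0.09 ± 0.13 SE (edgeR adjusted p = 0.691), and on log2(TPM + 1) it was called higher by limma (log2 fold change 0.30, adjusted p = 0.0716), where the median gene changed by 0.18.

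The Lyl1 to Tal1 ratio of expected counts was 1.717, 1.323 and 1.374 in the controls and 1.392, 1.277 and 2.100 in Brd9 KO. The groups overlapped, and control 1 and Brd9 KO 3 were highest in their groups. The log2 difference was 0.09 (exact permutation p = 0.8), and -0.13 without Brd9 KO 3. Lyl1 transcripts (1801 bases) are shorter than those of Tal1 (4216 bases), and control 1 and Brd9 KO 3 were the libraries richest in short transcripts. With the length trend removed the log2 difference was 0.29 and the groups did not overlap (exact permutation p = 0.1).

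Lmo2 (chr2:103957986-103981878, plus strand), the LIM-only bridge between TAL1 and GATA factors, was at 380.6, 334.5 and 350.9 CPM in the controls and 330.5, 299.3 and 304.2 CPM in Brd9 KO. No Brd9 KO library reached the lowest control library, although Brd9 KO 1 came close to it. The log2 fold change was -0.19 ± 0.10 SE (edgeR adjusted p = 0.263). It was -0.05 with the length trend removed and 0.02 on log2(TPM + 1), so its direction depended on the scale. Ldb1 (chr19:46031570-46045214, minus strand), the dimerising factor that joins distant complexes, was at 301.0, 245.2 and 272.5 CPM in the controls and 228.3, 208.0 and 259.6 CPM in Brd9 KO, with overlap. The change in Ldb1 was -0.23 ± 0.13 SE on the log2 scale (edgeR adjusted p = 0.262), and it was called lower only without Brd9 KO 3 (-0.32, adjusted p = 0.0952) among the 16 alternatives. Without that library 2009 of all 13124 tested genes were called lower, against 809 of 12953 with it. Of the exonic bases of Ldb1, 3.84% are shared with the antisense gene Pprc1, and since sources differ on whether libraries were stranded, reads there may belong to either gene.

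Zfpm1 (chr8:122282141-122337251, plus strand), the FOG1 cofactor of GATA1, was at 97.6, 130.4 and 131.7 CPM in the controls and 162.1, 162.2 and 107.8 CPM in Brd9 KO. Control 1 and Brd9 KO 3 were each the lowest of their group. On the log2 scale the change was 0.27 ± 0.19 SE (edgeR adjusted p = 0.393). Without Brd9 KO 3 it was 0.43 and Zfpm1 was called higher (adjusted p = 0.0692), so that library decided the call. Without that library 2141 of all 13124 tested genes were called higher, against 1190 of 12953 with it.

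Gfi1 (chr5:107716657-107726036, minus strand), a repressor needed for granulocyte and stem cell programs, was the member that fell. It was at 104.1, 114.1 and 94.9 CPM in the controls and 63.1, 72.9 and 81.6 CPM in Brd9 KO, without overlap. The log2 fold change was -0.53 ± 0.13 SE, with a 95% interval of -0.82 to -0.23 (edgeR adjusted p = 0.0464). It kept its direction in all 16 alternatives and its call in 11 of them. The alternative at an adjusted p under 0.05 reuses the main fit, so the direction could not differ there. The call was lost on log2(TPM + 1) (-0.32, limma adjusted p = 0.265), and when control 1 (adjusted p = 0.106), control 2 (0.143), Brd9 KO 1 (0.173) or Brd9 KO 2 (0.127) was left out, each of which also lowers the number of libraries. With the length trend removed the fall was -0.51 (edgeR adjusted p = 0.0292). The noncoding antisense gene A430072P03Rik shares 3.17% of the exonic bases of Gfi1.

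Gfi1b (chr2:28609450-28621982, minus strand), the paralog active in erythroid and megakaryocyte cells, was at 104.1, 74.5 and 93.4 CPM in the controls and 83.5, 76.6 and 76.0 CPM in Brd9 KO. The KO values lay within the range of the controls. Its log2 fold change was -0.20 ± 0.14 SE (edgeR adjusted p = 0.358), -0.09 with the length trend removed and 0.02 on log2(TPM + 1). The Gfi1 to Gfi1b ratio of expected counts was 1.0, 1.531 and 1.016 in the controls and 0.756, 0.9515 and 1.074 in Brd9 KO. Control 2 was above the rest and the groups overlapped, with a log2 difference of -0.34 (exact permutation p = 0.4). A difference between the changes of Gfi1 and Gfi1b was thus not shown.

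Nfe2 (chr15:103248212-103258403, minus strand) was at 286.7, 228.3 and 255.0 CPM in the controls and 291.2, 251.1 and 313.3 CPM in Brd9 KO, with overlap. Its change on the log2 scale was 0.15 ± 0.13 SE (edgeR adjusted p = 0.472). Nfe2 was called higher with the length trend removed, by 0.28 (edgeR adjusted p = 0.0372). It was also called on log2(TPM + 1), by 0.35 (limma adjusted p = 0.0528), a scale on which the median gene changed by 0.18. At 1582 bases it is among the shorter members.

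**Figure D4:**
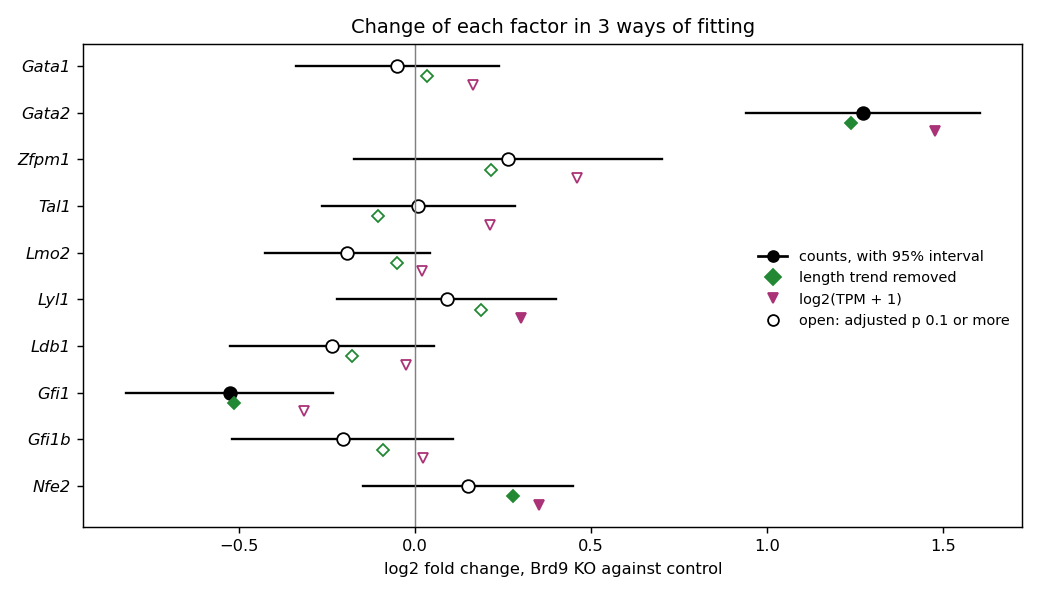
Log2 fold change of Brd9 KO against control (horizontal axis) for the 10 factors by edgeR on counts with its 95% interval (circles), by edgeR with the length trend removed (diamonds) and by limma on log2(TPM + 1) (triangles); filled symbols have an adjusted p under 0.1. Gata2 is filled in all 3, Gfi1 in the first 2 and Nfe2 in the last 2, and the triangles of the members lie to the right of their circles.

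The 3 genes whose log2 CPM followed Gata2 most closely over the 6 libraries were Fam174b (Pearson r = 0.9997), Cyp11a1 (0.9979) and Cuedc1 (0.9972), given as a description. The 6 points share their libraries and fall into the 2 groups, and 409 of 9241 candidate genes had r over 0.9. Cyp11a1, the enzyme that begins steroid synthesis, went from 24.7 to 82.5 CPM (log2 fold change 1.74, edgeR adjusted p = 0.00323).

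Other members of the same families were mostly silent or did not pass the test. Counts of calls in this list and those that follow stand beside 9.19% of all tested genes called higher and 6.25% lower. Of 13 relatives, 8 were too low to test, among them Gata4, Gata5, Gata6 and Tal2. Of the 5 tested, Lmo4, a LIM-only relative of Lmo2, rose from 107.5 to 147.0 CPM (log2 fold change 0.45, edgeR adjusted p = 0.082) and Lmo1 fell from 18.1 to 10.9 CPM (-0.73, adjusted p = 0.0959). Gata3, Nfe2l1 and Nfe2l2 did not pass. Neither call was stable: the count of higher relatives was 0 without any one of control 1, control 2, control 3 or Brd9 KO 1, and that of lower relatives was 0 without any one library but Brd9 KO 3.

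Among the partners with which these factors bind DNA, single subunits rose. None of the 3 E proteins, the dimer partners of TAL1 and LYL1, was called by edgeR or DESeq2 (1, Tcf3, had an unadjusted p under 0.05, and 1 was called lower with the length trend removed). The 2 most abundant were Tcf3 (213.7 CPM in the controls, 182.2 CPM in Brd9 KO) and Tcf12 (62.03 and 64.9 CPM). Of 5 tested ETO and SSBP cofactors of the LDB1 complex, 1 was called: Cbfa2t3 (ETO2), a corepressor of TAL1 complexes, rose from 75.0 ± 7.29 to 137.5 ± 18.0 CPM (log2 fold change 0.87 ± 0.13 SE, edgeR adjusted p = 0.00995). Mafg, a small MAF partner of NFE2, rose from 29.5 to 51.1 CPM (0.79, adjusted p = 0.00578) as the only call among 5 small MAF and BACH genes.

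The corepressors recruited by GFI1 factors and by FOG1 had calls in single subunits, to be read against the 9.19% of all genes called higher. Of 11 LSD1-CoREST genes, 3 rose and none fell, with a median log2 fold change of 0.28: Gse1 (0.71, edgeR adjusted p = 0.0186), Phf21a (0.47, 0.035) and Rcor2 (0.65, 0.0792). That count was 1 without control 1, without control 2 or without Brd9 KO 2, and 5 without Brd9 KO 3, and 1 on log2(TPM + 1). Kdm1a, the demethylase LSD1 itself, was at 91.9 CPM in the controls and 89.2 CPM in Brd9 KO (adjusted p = 0.816; named after its value was seen). Of 11 NuRD genes, 1 rose, the remodeller Chd3 (0.85, adjusted p = 0.025), and the list's median was -0.04. Without Brd9 KO 3 the NuRD counts were 2 higher and 1 lower.

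The progenitor heptad joins Gata2, Tal1, Lyl1 and Lmo2 with Runx1, Fli1 and Erg. Runx1 rose from 102.7 to 150.2 CPM (log2 fold change 0.55 ± 0.13 SE, edgeR adjusted p = 0.0404) and Fli1 from 90.6 to 113.9 CPM (0.33 ± 0.10 SE, adjusted p = 0.0754), while Erg went from 33.8 to 42.9 CPM (adjusted p = 0.267). The number called, 2 of 3, was 1 without control 3 and 0 without any one of control 1, control 2, Brd9 KO 1 or Brd9 KO 2. Among 5 factors that oppose or join GATA factors in lineage choice, Klf1, the erythroid factor activated by GATA1, fell from 131.0 ± 2.02 to 78.6 ± 7.47 CPM (-0.74 ± 0.10 SE, adjusted p = 0.00791). Irf8, a monocyte and dendritic cell factor, fell from 360.1 to 212.4 CPM (-0.76, adjusted p = 0.0153). Cebpa, the granulocyte factor, rose from 194.2 to 252.3 CPM (0.38, adjusted p = 0.0447), and the count of higher factors was 0 without any one library but Brd9 KO 3, where it was 2. Spi1 and Myb did not pass.

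Known targets of the factors moved in unlike directions. The calls in these lists and in the marker lists below stand beside 9.19% of all tested genes called higher and 6.25% lower. Of 15 tested erythroid genes activated by GATA1, 6 fell, none rose and 9 did not pass, with a median log2 fold change of -0.53 against 0.02 over all genes. Besides Klf1, these were Rhd, a blood group protein (110.6 to 65.4 CPM, edgeR adjusted p = 0.0202), Epor, the erythropoietin receptor (75.7 to 54.0 CPM, 0.0464), Ermap (189.1 to 110.6 CPM, 0.0659), Kel and Hbb-bt, a globin with near-identical copies whose own value is uncertain. The list's summed level overlapped between groups, from 1536 to 2129 CPM in the controls and 1218 to 2122 CPM in Brd9 KO, where Brd9 KO 3 was highest. The largest part of that sum was 1 globin gene, Hba-a1, at 626.4, 659.4 and 851.4 CPM in the controls. In Brd9 KO, Hba-a1 was at 511.6, 505.6 and 1177 CPM, and Hba-a2 at 53.3, 44.2 and 201.8 CPM. Both were highest in Brd9 KO 3 and neither was called, so the sum largely follows these globins. The count of fallen genes was 3 without control 2, 2 without control 3, 2 without Brd9 KO 1, 3 without Brd9 KO 2, 3 on log2(TPM + 1) and 8 with the length trend removed.

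Of 11 megakaryocyte genes that GATA1 and NF-E2 activate, 6 rose and none fell, with a median log2 fold change of 0.73. Itga2b, the platelet integrin CD41, rose from 556.5 ± 147.4 to 1143 ± 152.8 CPM (1.04, edgeR adjusted p = 0.0225), Gp1ba from 60.2 to 150.0 CPM (1.32, 0.0241), Tbxas1, the thromboxane synthase, from 52.2 to 97.3 CPM (0.90, 0.0247) and Pf4, a platelet chemokine, from 334.1 to 967.4 CPM (1.53, 0.0284). The list summed to between 1651 and 2744 CPM in the controls and between 3382 and 4704 CPM in Brd9 KO, without overlap. The count was 3 without control 3 and 4 without any one of control 2, Brd9 KO 1 or Brd9 KO 2. It was 9 without control 1, without Brd9 KO 3, on log2(TPM + 1) and with the length trend removed.

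**Figure D5:**
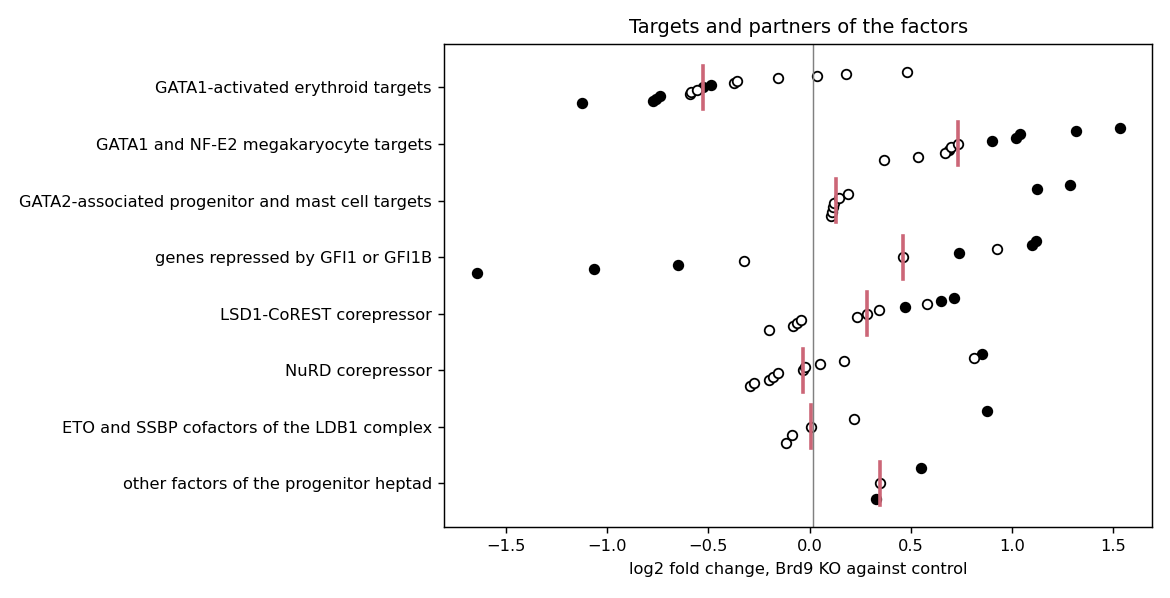
Log2 fold change of Brd9 KO against control (horizontal axis) of each tested gene in 8 lists of targets and partners; filled points have an edgeR adjusted p under 0.1, red bars are list medians and the grey line is the median of all tested genes. The erythroid list has its median at -0.53 and the megakaryocyte list at 0.73.

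Of 8 progenitor and mast cell genes associated with GATA2, 2 rose and 6 did not pass, with a median of 0.13. The pair that rose are mast cell and basophil genes: Ms4a2, a chain of the IgE receptor, from 94.8 ± 12.1 to 231.0 ± 10.5 CPM (log2 fold change 1.28 ± 0.12 SE, edgeR adjusted p = 0.00246), and Cpa3, a granule protease, from 170.5 ± 22.2 to 371.1 ± 16.0 CPM (1.12 ± 0.12 SE, adjusted p = 0.00345). Kit, the stem cell factor receptor, was at 220.8 and 237.7 CPM, and Samd14 at 110.4 and 119.8 CPM, and neither passed. Without Brd9 KO 3 the count was 4.

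Genes that GFI1 or GFI1B are known to repress were split. Of 9 tested, 3 rose, 3 fell and 3 did not pass. Csf1, the macrophage growth factor, rose from 26.2 to 56.1 CPM (log2 fold change 1.10, edgeR adjusted p = 0.00246) and Meis1, a stem cell homeobox factor, from 23.7 to 51.3 CPM (1.12, 0.00859). Egr1, an immediate early factor, fell from 24.2 to 7.76 CPM (-1.64, 0.00714) and Hoxa9 from 28.7 to 13.7 CPM (-1.07, 0.0115). Tgfbr3, a TGF-beta coreceptor, was also called lower.

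Markers of mast cells and basophils, eosinophils, endothelium and stroma were higher in sum in every Brd9 KO library than in every control library, and those of neutrophils were not. All 5 tested mast cell and basophil markers of 8 rose, and these include Cpa3 and Ms4a2, already counted in the GATA2-associated list. The list summed to 1871 to 2490 CPM in the controls and 3269 to 5057 CPM in Brd9 KO. Most of that sum was Prss34, at means of 1384 and 2320 CPM, and Mcpt8, at 507.4 and 888.5 CPM (edgeR adjusted p = 0.0672 and 0.0761). The mature mast cell proteases Cma1, Tpsb2 and Mcpt4 were at or near 0. The count of calls was 3 without any one of control 1, control 2, control 3 or Brd9 KO 1. Of 6 eosinophil markers, 5 rose and 1, the peroxidase Epx, fell from 309.7 to 106.3 CPM. The list summed to 1754 to 2316 CPM in the controls and 3600 to 7145 CPM in Brd9 KO. Most of that sum was 1 gene, Prg2, at a mean of 1635 CPM in the controls and 4512 CPM in Brd9 KO. Endothelial markers rose in 5 of 9 (133 to 150 CPM in sum against 185 to 219 CPM), where Pecam1, also made by blood cells, held 118.9 and 173.1 CPM and Cldn5, Flt4 and Cdh5 stayed under 2 CPM; the count was 3 without any one of control 1, control 2, control 3 or Brd9 KO 2, and 2 without Brd9 KO 1. Stromal markers rose in 5 of 7 (34.0 to 51.3 CPM in sum against 97.2 to 150.4 CPM). Among them Cxcl12 held means of 11.1 and 65.7 CPM, and Lepr, Kitl and Adipoq stayed under 5 CPM. Neutrophil markers summed to 7203 CPM in Brd9 KO 3 and to 1081 and 1246 CPM in the other two KO libraries, against 1564 to 2907 CPM in the controls, and 1 of 6 (Camp) was called, lower; none was called without any one of the other 5 libraries, and 4 were called lower without Brd9 KO 3. The part of these cells in the Gata2, Ms4a2 and Cpa3 results was not tested.

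The labelled cell type was checked against its markers. The progenitor genes Kit and Cd34 were present in both groups (Cd34 at 315.6 and 352.3 CPM) and did not pass the test, and Ptprc (CD45) rose from 158.7 to 220.0 CPM (edgeR adjusted p = 0.0527), a call lost without any one of control 1, control 2, Brd9 KO 1 or Brd9 KO 2 and with the length trend removed. Of the genes of the lineage cocktail, Cd3e, Cd4, Cd8a, Klrb1c and Il7r were under 6 CPM in the mean of either group. Itgam (CD11b) rose from 53.4 to 121.9 CPM (edgeR adjusted p = 0.0191).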

How the data were processed

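RNA-seq of poly(A)-selected RNA was measured in 6 libraries, grouped as control or Brd9 KO by the genotype in the sample labels. The authors used an nf-core pipeline with STAR and RSEM and the mm10 genome. The deposited expected counts (estimated read counts per gene, not normalized) and the TPM that the authors' RSEM run computed were used, with RSEM's transcript length. Expected counts were rounded; those of the 10 members were already whole. In R 4.3.3, genes were filtered by filterByExpr, scaled by TMM and compared by the quasi-likelihood test of edgeR 4.0.16 without covariates, with Benjamini-Hochberg adjustment over 12953 genes, called at an adjusted p under 0.1, the study's threshold. Independent hypothesis weighting, part of the study's DESeq2 test, was not used here; DESeq2 1.42.0 without this weighting, limma-voom and limma 3.58.1 on log2(TPM + 1) were alternatives. SE is the log2 fold change over the root of F. The length trend was a lowess curve of each library's log2 CPM deviations on log2 transcript length, given to edgeR as an offset. The common biological coefficient of variation was 0.175. Replicates differed by more than counting noise in every pair (chi-square over its degrees of freedom, 10.6 to 80.2). The fit was tested on simulated data. It missed most of the 1.5-fold changes there, and more of its calls were false than the threshold of 0.1 aims at. A member that did not pass may therefore have changed.

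Gene positions are from GENCODE vM21 and promoter sequences from RefSeq. Epb42 and Ahsp of the erythroid list were not matched. The genes named are the members, Brd9, up to 4 called genes of smallest p per list (or the 2 most abundant), and the 3 most correlated with Gata2; others were named after their values were seen. The members and lists were chosen with earlier results of these data known. Some genes of the lists are not reported here by name.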

Additional observations from a re-analysis of the deposited data

How the results depend on the processing

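Gata2 was called higher in all 16 alternatives, and no alternative called Gata1. The number of genes called, 1999, ranged from 641 (without Brd9 KO 1) to 4150 (without Brd9 KO 3) when 1 library was left out, and was 1015 at an adjusted p under 0.05. Higher calls made up 59.5% of all calls, 74.1% with scaling by the library total (1402 higher, 489 lower; median log2 fold change 0.10) and 83.3% on log2(TPM + 1) (1114 higher, 224 lower; median 0.18), so the latter 2 scales shift the median gene upward. Members called higher were 3 on log2(TPM + 1), 2 with the length trend removed and 1 to 2 when leaving out 1 library. Members called lower were 0 on log2(TPM + 1) and 0 to 2 when leaving out 1 library. The log2 fold change of Gata1 turned to 0.037 with library total scaling, 0.16 on log2(TPM + 1) and 0.036 with the length trend removed, and ranged from -0.13 to 0.037 when leaving out 1 library. That of Tal1 turned to -0.0023 with DESeq2 and -0.11 with the length trend removed, and ranged from -0.054 to 0.11 without 1 library. On log2(TPM + 1), Lmo2 turned to 0.022 and Gfi1b to 0.025. Without 1 library, Lyl1 ranged from -0.024 to 0.19. None of these values of opposite sign was past the threshold, and the cause was not tested.

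The log2 difference of the Gata2 to Gata1 ratio moved from 1.32 to 1.20 with the length trend removed, by construction, since the Gata2 transcript is the longer. The log2 difference of Lyl1 to Tal1 ranged from -0.13 to 0.23 without 1 library. Correlations of the deviations from the group mean were -0.0887, 0.469 and 0.0203 for same-numbered libraries. For libraries of unlike number they ran from -0.459 to 0.384. With 3 libraries per group, these values cannot settle whether the replicate numbers pair the libraries. With a replicate block, 2077 genes were called, Gata2 changed by 1.27 and Gfi1 by -0.53 on the log2 scale (edgeR adjusted p = 0.00383 and 0.0587), and the mean Gata2 to Gata1 difference was 1.32; the block changed no member's call. It moved the count of megakaryocyte genes called higher from 6 to 10, that of the other heptad factors from 2 to 1 and that of lineage cocktail genes called lower from 0 to 1. The count of erythroid genes called lower moved from 6 to 7, and that of GFI1-repressed genes called higher from 3 to 4.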
